A study of Mus musculus with 6 samples.

Results

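The 6447 regions described here were open in every library of the series but held a lower rank in Chd4KO β-cells than in control β-cells. They were chosen from 73402 autosomal regions that were called in all 6 ATAC-seq peak lists, out of 156745 regions after merging the lists. In each library the strongest −log10 p that the authors' peak caller gave within a region was turned into a percentile, from 0 for the weakest to 100 for the strongest, among the 75312 regions called in all 6 libraries. A region was termed weakened if its mean Chd4KO percentile lay at least 20 points below its mean control percentile and every Chd4KO value lay below every control value. Weakened regions made up 8.78% of the shared autosomal regions. On the X chromosome, which the selection left out, 133 of 1888 shared regions, or 7.04%, met the same rule. The mirror rule, at least 20 points higher in Chd4KO with no overlap, held for 8067 regions, or 11.0%, which are termed strengthened. Both shares follow from the rule and carry no test. Coordinates are those of build mm10.

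ATAC-seq uses the transposase Tn5 to cut accessible DNA and attach sequencing adapters. The Chd4KO group and the control group had 3 libraries each, all from islets of tamoxifen-treated mice that were dispersed and sorted by flow cytometry for Tomato+ mature β-cells, with 27000 to 80000 cells collected and 14000 to 45000 nuclei tagmented. The series text writes the knockout as Chd4Db, and the labels used here give no alleles, recombinase driver or age for either group. Whether replicate libraries stem from different animals is not labelled, so the spread between them may be technical. Chd4KO lists held 119088 to 124125 peaks and control lists 100109 to 110693, and the depth in reads is unknown. In the territory of Chd4 itself, meaning its span widened by 10 kb at both ends, lay 6 shared regions, of which 0 were weakened and 1 was strengthened. Peak calls cannot reveal deleted exons and so do not check the genotype labels. All 9 β-cell marker genes had a shared region within 1 kb of the gene span, against 1 of 4 α-cell, 1 of 2 δ-cell and 0 of 4 acinar genes. Among markers of other cells that a sort may carry, 3 of 3 duct, 2 of 3 endothelial, 3 of 3 leukocyte and 3 of 3 mesenchymal genes had one. Gcg and Sst, which encode glucagon and somatostatin, had none. The strongest such region of Irx2, an α-cell gene, stood at mean percentiles of 81.7 in Chd4KO and 40.2 in controls, and that of Hhex, a δ-cell gene, at 81.5 in Chd4KO and 48.6 in controls. Krt19 (54.4 and 18.7), Col1a2 (75.1 and 45.5) and Cftr (84.9 and 83.2) also stood higher in Chd4KO. The other duct, endothelial, leukocyte and mesenchymal markers with such a region stood lower. All 9 β-cell markers but Ins1 stood lower too, with the largest drops at Ucn3 (41.8 and 58.4) and Slc2a2 (65.0 and 78.9). The part of other cell types in the results was not tested. The strongest such region was weakened for none of these markers.

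Chd4 is a helicase that uses ATP and forms the motor of the NuRD complex, which moves nucleosomes and couples that activity to histone deacetylation. Open regions at gene starts mostly mark promoters, while open regions farther away include enhancers, which in β-cells are bound by factors such as Pdx1, Mafa, Nkx6-1 and Neurod1. In bulk libraries, a region that is open in fewer cells and a region that is less open in each cell cannot be told apart.

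Weakened regions covered a whole promoter window of the RefSeq table (build GRCm38.p6, 250 bases before to 50 bases after an annotated start of a gene) in 183 cases, in 163 regions. These were 1.47% of the 12443 windows inside any shared autosomal region. The windows below are shown because Chga was the one gene of the β-cell lists with such a window, and the others had some of the largest differences in percentile among windows of this kind. Each reads 5′ to 3′ on the strand of its gene. Capitals mark matches on either strand to the short motifs spelled out after the sequences, other than the general E-box, which is not marked. Chga, at chr12:102554691-102554990 on the plus strand, encodes chromogranin A of the secretory granule. Vrk1, at chr12:106030467-106030766 on the plus strand, encodes a nuclear serine-threonine kinase. The Vrk1 window lies inside the gene span, over 1 kb from either end, so its start is an internal one. Cntnap3, at chr13:64903839-64904138 on the minus strand, encodes a contactin-associated membrane protein. Pygo1, at chr9:72925395-72925694 on the plus strand, encodes a nuclear cofactor of Wnt signalling.
Chga: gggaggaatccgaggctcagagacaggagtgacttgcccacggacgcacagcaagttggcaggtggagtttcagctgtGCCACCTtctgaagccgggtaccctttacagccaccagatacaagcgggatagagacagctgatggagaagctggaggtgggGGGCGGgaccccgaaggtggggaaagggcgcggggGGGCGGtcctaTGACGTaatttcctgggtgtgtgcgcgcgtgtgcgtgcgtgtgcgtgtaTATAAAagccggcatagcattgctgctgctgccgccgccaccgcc
Vrk1: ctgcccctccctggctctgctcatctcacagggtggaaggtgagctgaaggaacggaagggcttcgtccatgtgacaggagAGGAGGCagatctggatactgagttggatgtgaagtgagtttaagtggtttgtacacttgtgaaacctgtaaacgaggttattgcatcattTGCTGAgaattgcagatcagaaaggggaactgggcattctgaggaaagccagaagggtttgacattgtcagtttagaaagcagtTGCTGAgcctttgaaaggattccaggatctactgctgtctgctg
Cntnap3: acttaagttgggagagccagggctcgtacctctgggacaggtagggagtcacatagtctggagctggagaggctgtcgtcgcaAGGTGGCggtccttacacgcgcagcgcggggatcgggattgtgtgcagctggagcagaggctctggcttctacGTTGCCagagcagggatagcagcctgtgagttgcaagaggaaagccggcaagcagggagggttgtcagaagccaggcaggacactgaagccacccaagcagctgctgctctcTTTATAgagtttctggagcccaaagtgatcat
Pygo1: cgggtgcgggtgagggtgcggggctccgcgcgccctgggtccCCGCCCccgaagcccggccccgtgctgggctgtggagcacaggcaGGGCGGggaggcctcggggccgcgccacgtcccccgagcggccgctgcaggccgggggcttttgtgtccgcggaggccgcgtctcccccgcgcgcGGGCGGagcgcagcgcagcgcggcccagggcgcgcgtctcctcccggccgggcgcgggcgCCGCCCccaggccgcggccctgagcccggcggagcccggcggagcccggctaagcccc

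The Chga window held a TATA box 5 bases past the annotated start, which is counted as base 0, a cAMP response element core at -44 and a pair of SP/KLF boxes at -90 and -55. The Vrk1 window had 3 CpG dinucleotides and a pair of MAF cores, while the Pygo1 window had 48 CpG and 4 SP/KLF boxes. Across all 183 windows in weakened regions, the median GC content was 61.3% and the median number of CpG was 17. Across all 12443 windows inside shared autosomal regions these were 62.7% and 23 CpG. Windows with under 5 CpG numbered 21 of 183 in weakened regions, or 11.5%, against 4.03% of all windows. Put the other way, 4.18% of the 502 windows with under 5 CpG lay in a weakened region, as did 1.36% of the 11941 windows with 5 or more. Strengthened regions held 409 windows, with a median of 11 CpG and 19.6% under 5 CpG, so the low-CpG share was above that of all windows in both directions of change.

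In total 17 motifs were searched on both strands, and matches of different motifs may overlap. SP/KLF boxes (GGGCGG) occurred in 54.1% of windows in weakened regions and 67.9% of all windows, ETS sites (CCGGAAG) in 9.29% and 18.1%, NFY boxes (CCAAT) in 27.9% and 37.6%, and cAMP response element cores (TGACGT) in 7.10% and 12.2%. Such motifs are common in CpG-rich promoters, and each was less frequent in weakened regions than in all. AP-1 sites (TGANTCA) occurred in 7.65% and 4.45%, TATA boxes (TATAAA) in 10.9% and 5.55%, and GATA sites (AGATAA) in 8.20% and 4.77%. Windows in strengthened regions differed from all windows in the same direction for most of these motifs, with SP/KLF boxes in 51.8%, ETS sites in 6.60%, cAMP response element cores in 5.62%, AP-1 sites in 7.58%, TATA boxes in 8.56% and GATA sites in 7.09%. NFY boxes were the exception, at 43.8% in strengthened regions. Among windows with under 5 CpG, AP-1 sites occurred in 23.8% of those in weakened regions and 14.5% of all. For TATA boxes these shares were 23.8% and 12.9%, for GATA sites 23.8% and 13.7%, and for ETS sites 4.76% and 1.20%. For SP/KLF boxes they were 4.76% and 8.57%, for NFY boxes 23.8% and 39.4%, and for HNF1 sites 9.52% and 14.5%. In weakened regions none of these windows held a cAMP response element core or a forkhead site, against 2.79% and 7.57% of all. Not all 17 motifs are given for these windows. With 21 such windows in weakened regions, a few windows set these shares. MAF cores (TGCTGA) occurred in 13.7% and 14.6%, RFX cores (GTTGCC) in 12.6% and 13.5%, forkhead sites (TGTTTAC) in 3.83% and 2.54%, homeobox sites (TAATTA) in 1.64% and 2.12%, HNF1 sites (GTTAAT) in 4.37% and 3.73% and NRF1 cores (GCGCATG) in 7.10% and 7.18%. E-boxes (CANNTG) occurred in 64.5% and 62.0%, and the NEUROD-type E-box that lies within this pattern (CAGATGG) in 2.73% and 3.30%. TEAD sites (CATTCC) occurred in 12% and 10.6%, and the CTCF core (AGGNGGC) in 39.9% and 43.1%. Most weakened regions lie away from gene starts and were not searched.

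Some weakened regions covered microRNA genes, which were looked up after the values were seen. MicroRNAs silence messenger RNAs that pair with their seed, bases 2 to 8, which is in capitals in the RefSeq mature sequences below. A shared region lay within 1 kb of 230 autosomal hairpins, and for 12 of these, or 5.22%, such a region was weakened. Of all shared autosomal regions 8.78% were weakened. The first share counts hairpins and the second counts regions, so they are not like measures. The sequences are shown for 3 hairpins that lie under a weakened region.
mmu-miR-30a-5p: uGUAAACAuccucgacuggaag
mmu-miR-30a-3p: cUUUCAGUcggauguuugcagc
mmu-miR-152-5p: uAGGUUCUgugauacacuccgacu
mmu-miR-152-3p: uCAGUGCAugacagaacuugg
mmu-miR-330-5p: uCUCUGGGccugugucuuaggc
mmu-miR-330-3p: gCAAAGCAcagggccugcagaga

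No seed is shared among these 6 arms. The region over the Mir30a hairpin (chr1:23271327-23272424) stood at percentiles 4.47, 6.54 and 4.54 in Chd4KO libraries 1 to 3, against 49.3, 28.3 and 37.6 in control libraries 1 to 3. All 3 Chd4KO values were thus near the bottom of the shared regions, while the controls lay in the lower to middle part of the range. The region over Mir152 (chr11:96849511-96850880) stood at 36.4, 37.0 and 24.6 in Chd4KO and at 54.9, 62.3 and 68.5 in controls. The region over Mir330 (chr7:19180884-19181633), inside the gene Eml2, stood at 19.7, 14.3 and 21.4 in Chd4KO and at 61.5, 40.3 and 43.2 in controls. It belongs to a cluster of weakened regions beside the incretin receptor gene Gipr that is described further down. Open chromatin does not give the level of a microRNA.

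Weakened regions were of middling strength in control β-cells and weak in Chd4KO β-cells. Their median percentile was 23.0, 23.5 and 21.8 in Chd4KO libraries 1 to 3, against 52.7, 52.5 and 52.4 in control libraries 1 to 3. The medians of the 3 libraries of each group thus lay close together, which does not give their agreement at single regions. The median difference of the mean percentiles, Chd4KO minus control, was -25.7 points, with quartiles of -30.9 and -22.5 and a lowest value of -69.1. Over all shared autosomal regions the median difference was -1.36 points. A difference of 30 points or more was seen at 1816 weakened regions, one of 40 or more at 460 and one of 50 or more at 100.

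The gap between the lowest control value and the highest Chd4KO value had a median of 15.1 points and was at least 10 points at 4992 regions, or 77.4%. At 51 regions it was under 1 point. The SD over the 3 libraries had a median of 6.07 points in Chd4KO and 4.82 points in controls, against 4.46 and 4.05 over all shared autosomal regions. Chd4KO library 3 gave the lowest value of its group at 41.6% of weakened regions, library 1 at 28.5% and library 2 at 29.9%. At the threshold itself, a weakened region near Myl10 had a difference of -20.002 points, and regions just outside it, near Rgs7 and Gbp6, had -19.9999 and -19.998 points. With overlap allowed, 6617 regions met the threshold of 20 points, or 9.01%, so 170 of them had overlapping groups, and 15369 did not overlap but differed by less. Without the threshold, non-overlap with lower Chd4KO values held for 29.7% of shared autosomal regions and non-overlap with higher values for 22.8%.

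The same regions had less enrichment and narrower peaks in Chd4KO. These values belong to the same peaks as the ranked −log10 p and are tied to it, so they give no separate support. The fold enrichment at the strongest summit, as deposited by the authors, had medians of 7.51, 7.66 and 6.28 in Chd4KO libraries 1 to 3, against 11.1, 12.1 and 11.5 in control libraries 1 to 3. Over all shared autosomal regions it was the Chd4KO libraries that had the higher medians, at 12.7, 12.7 and 11.1 against 10.1, 10.9 and 10.5 in controls. The median log2 ratio of fold enrichment, Chd4KO over control, was -0.62 at weakened regions and 0.08 at all shared autosomal regions. It was negative at 6438 of the 6447 weakened regions and at 40.5% of all shared autosomal regions. The deposited −log10 p, the column that the rule ranked, had medians of 38.3, 41.7 and 31.5 in Chd4KO and 72.3, 76.9 and 71.2 in controls at weakened regions. Over all shared autosomal regions these medians were 102, 108 and 88.7 in Chd4KO and 66.1, 71.6 and 66.3 in controls. The lower Chd4KO −log10 p at weakened regions follows from the selection. Depth enters a −log10 p, and its part in these values was not tested.

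**Figure D1:**
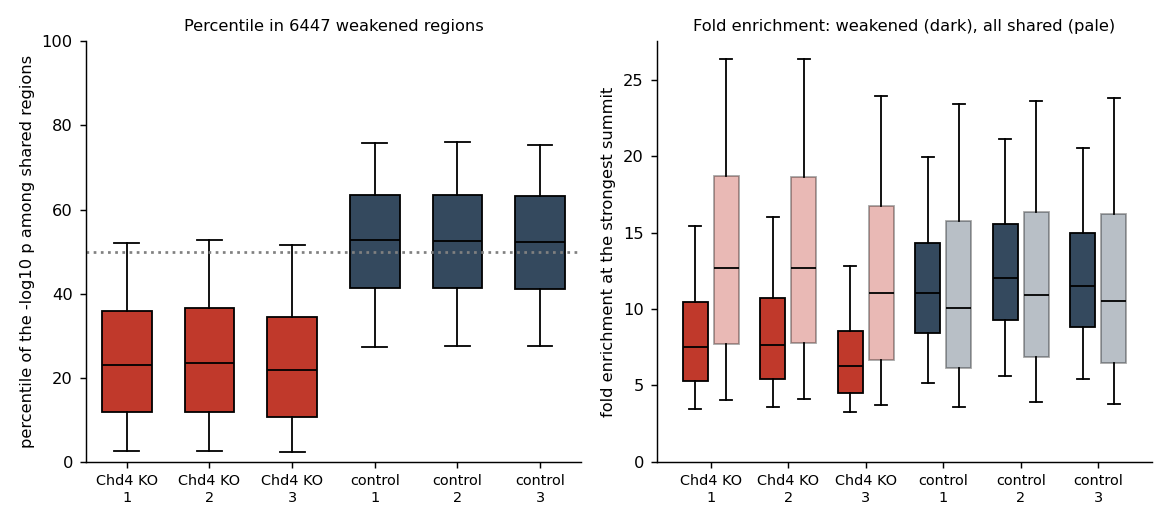
Left, percentile of the −log10 p in the 6447 weakened regions for each library; right, the authors' fold enrichment in weakened regions (dark boxes) and in all shared autosomal regions (pale boxes), with Chd4KO in red and control in blue. Boxes give the median and quartiles and whiskers the 5th and 95th percentiles over regions; at weakened regions the Chd4KO fold enrichments have medians of 6.28 to 7.66 and the control ones 11.1 to 12.1, while the pale boxes are higher in Chd4KO.

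Peaks in weakened regions covered a median of 429, 448 and 419 bp in Chd4KO libraries 1 to 3, against 557, 577 and 542 bp in control libraries 1 to 3. At all shared autosomal regions peaks covered 640, 649 and 633 bp in Chd4KO and 611, 640 and 607 bp in controls. Peaks covered fewer bases in Chd4KO at 91.2% of weakened regions and at 48.8% of all shared autosomal regions. The summits stayed in place, with a median shift of 9 bp between the mean Chd4KO and mean control summit, against 10 bp at all shared autosomal regions. One peak in every library was found at 93.5% of weakened regions and 93.0% of all shared autosomal regions. All of these values come from the contrast that chose the regions and were not tested.

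Among shared regions, those of medium strength in controls were weakened most often. No region with a mean control percentile under 20 could meet the rule. Of regions with control percentiles of 20 to 30, 4.38% were weakened, of those at 30 to 40, 14.2%, and of those at 50 to 60, 21.1%. The share was 17.1% at 60 to 70, 9.14% at 70 to 80 and 1.30% at 80 to 90. Of the 7338 strongest regions, at control percentiles of 90 to 100, 2 were weakened, or 0.027%. The strongest open regions of control β-cells thus met the rule very rarely. A step of 20 points was not the same step in −log10 p at every level. In control library 1, regions at percentiles of 89.7 and 70.5 had −log10 p of 475 and 146. Regions at 50.3 and 30.8 had 66.9 and 33.9. The rank scale thus enters the shares by control percentile, and its part was not tested.

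**Figure D2:**
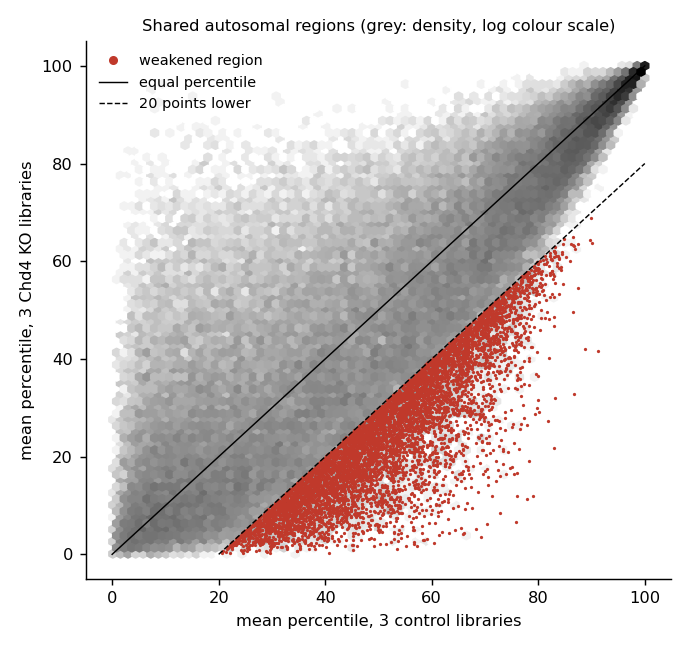
Mean percentile in the 3 Chd4KO libraries against mean percentile in the 3 control libraries for all shared autosomal regions (grey density on a log colour scale) and for the weakened regions (red points). The red points fill the area under the dashed line, 20 points below equality, mainly between control percentiles of 30 and 80, and 2 lie above a control percentile of 90.

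Weakened regions lay mostly away from gene ends. Within 1 kb of either end of a protein-coding gene span lay 518 weakened regions, or 8.03%, while gene ends held 18.9% of all shared autosomal regions. Within genes lay 3354, or 52.0%, against 45.6% of all, and between genes lay 2575, or 39.9%, against 35.5% of all. Of the gene-end regions 3.74% were weakened, of the regions within genes 10.0% and of those between genes 9.88%. Gene-end regions were also much stronger in controls, with a median control percentile of 86.1, against 42.3 within genes and 44.2 between genes. As a ratio, the shares lay closer together than this at medium control strength but not at 80 to 90. Of regions at control percentiles of 50 to 60, 16.8% were weakened at gene ends, 21.6% within genes and 21.6% between genes. At 30 to 40 the shares were 12.7%, 15.5% and 12.9% for the same locations. At 80 to 90, with 2813 regions at gene ends, they were 0.427%, 1.74% and 2.00%, and at 20 to 30 they were 1.97%, 5.00% and 4.01%. Gene ends had the lowest share of weakened regions in every bin of control percentiles from 20 to 90.

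Strengthened regions were spread over the same locations in shares of 7.28% at gene ends, 48.4% within genes and 44.3% between genes. Weakened regions were thus found within genes more often and between genes less often than strengthened ones, a difference that was not tested. Between genes, a weakened region lay a median of 24197 bp from the nearest gene span, against 48967 bp for strengthened regions and 34052 bp for all shared autosomal regions. Weakened regions had a median width of 665 bp, against 766 bp for all shared autosomal regions.

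**Figure D3:**
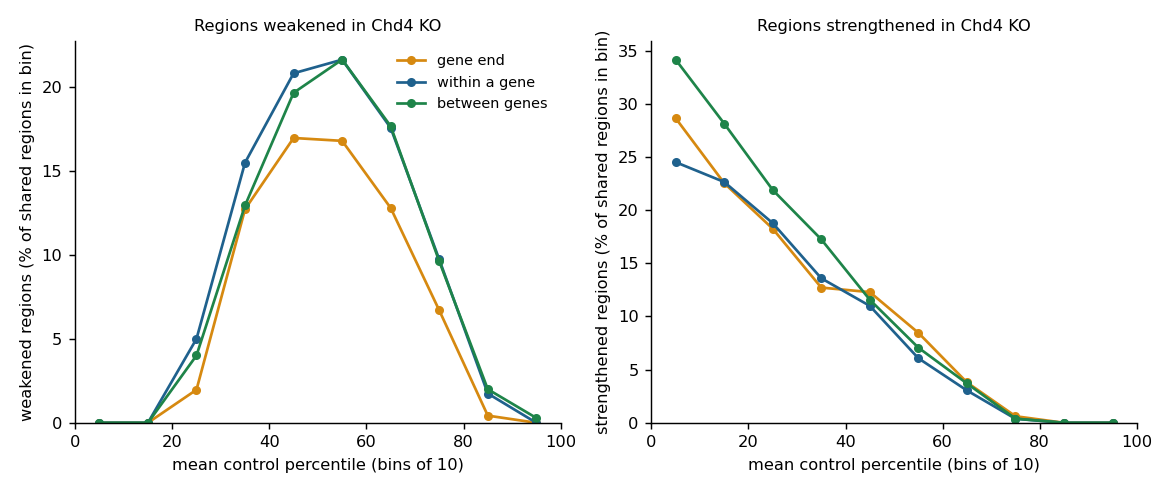
Weakened regions (left) and strengthened regions (right) as a percentage of the shared autosomal regions in each bin of 10 points of mean control percentile, by location. Weakening is most frequent at control percentiles of 40 to 60, with the orange gene-end line lowest at 16.8% in the bin from 50 to 60, and strengthening is most frequent in the weakest control regions.

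The share of weakened regions varied little between chromosomes, at 6.95% on chromosome 19 and 9.86% on chromosome 16 as the extremes. Most weakened regions were isolated. No other weakened region lay within 10 kb of 5859 of them, and 588 formed 288 clusters, of which 277 had 2 members, 10 had 3 and 1 had 4. Another weakened region lay within 10 kb of 9.12% of weakened regions and of 9.21% of all shared autosomal regions. Regions called in all 3 control libraries and no Chd4KO library, termed lost, lay within 10 kb of 6.0% of weakened regions and of 5.69% of all shared autosomal regions. The reverse, gained regions, lay within 10 kb of 19.4% and 18.2%. Shared regions that were not weakened but lay within 10 kb of one that was had a median difference of -0.82 points (6174 regions), against -0.35 points for those farther away (60781 regions).

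The 10 largest differences all lay near genes outside the β-cell lists. The region with the lowest value (chr6:128469405-128469920), between genes and 13647 bp from Pzp, a protease inhibitor gene of plasma, stood at percentiles 9.5, 3.4 and 7.0 in Chd4KO libraries 1 to 3, against 81.4, 69.6 and 76.3 in control libraries 1 to 3. Its fold enrichment was 5.87, 4.55 and 4.35 in Chd4KO, against 22.9, 19.2 and 24.1 in controls. The groups were far apart on both scales. A region at an end of Mpp5 (chr12:78839699-78840410), a scaffold gene of cell polarity, stood at 2.21, 5.19 and 3.54 in Chd4KO and at 70.8, 69.1 and 68.1 in controls. At the Vrk1 window shown above, the region (chr12:106029617-106030962) stood at 4.95, 5.55 and 7.94 in Chd4KO and at 76.4, 66.9 and 68.0 in controls. It lay within the gene, over 1 kb from either end of the span. These regions were strong or medium in every control library and near the bottom of the shared regions in every Chd4KO library. The other 7 of the 10 largest differences lay near Rbm27, Gm4340, Aldoart1, St6galnac5, Zfp12, Rbm39 and Traf7, with differences of -67.2 to -61.7 points. St6galnac5, a sialyltransferase gene, had the widest spread in Chd4KO among these 10, at 12.2, 2.00 and 21.5, against 77.9, 72.3 and 77.8 in controls.

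At the 10 weakened regions that were strongest in controls, most Chd4KO values stayed at medium percentiles. The strongest (chr12:51214804-51215675), 132555 bp from G2e3, stood at 61.2, 19.9 and 43.7 in Chd4KO and at 91.6, 90.7 and 91.5 in controls, so the Chd4KO libraries disagreed widely while all lay below the controls. A region 31145 bp from Wnt7b (chr15:85612966-85614174), which encodes a Wnt ligand, stood at 37.5, 42.9 and 45.6 in Chd4KO and at 89.8, 87.5 and 89.2 in controls. A region within Syt1 (chr10:108626283-108627036), which encodes a calcium sensor of vesicle fusion, stood at 54.2, 64.7 and 70.3 in Chd4KO and at 85.8, 85.6 and 88.8 in controls. The other 7 lay near Gm40363, Sdk2, Lsm14a, Fbxo15, Epdr1, Pde5a and Ypel2, with differences of -53.9 to -21.0 points.

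Genes of insulin production and secretion had weakened regions beside regions that kept their rank. The overlapping lists of β-cell transcription factors, insulin secretion and β-cell maturation hold 81 genes, of which 79 had a shared region and 34 had a weakened one in their territory. Over all 16796 autosomal genes with a shared region the share was 25.3%, but the listed genes also had more shared regions each, with a median of 5 against 3. Counted by region, 54 of the 743 shared regions in these territories were weakened, or 7.27%, and 75 were strengthened, or 10.1%. Both shares were below those of all shared autosomal regions, at 8.78% and 11.0%, a comparison not matched for location or control strength. The median difference over the 743 regions was -1.31 points, against -1.36 over all shared autosomal regions. Of the 54 weakened regions 38 lay within a gene, 8 at a gene end and 8 between genes.

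At each insulin gene a weaker region met the rule while the strongest region of the locus did not. A region that overlaps one end of Ins2 (chr7:142677284-142679086) stood at percentiles 33.2, 45.3 and 28.3 in Chd4KO libraries 1 to 3, against 73.7, 69.4 and 69.8 in control libraries 1 to 3. Its fold enrichment was 3.75, 4.20 and 3.62 in Chd4KO, against 5.28, 4.61 and 5.02 in controls, also with no overlap. The other shared region at Ins2 (chr7:142679335-142680386), over the opposite end of the gene, stood at 78.0, 79.7 and 79.8 in Chd4KO and at 83.4, 81.4 and 82.7 in controls. Near Ins1 the weakened region lay 7158 bp from the gene (chr19:52256216-52257139) and stood at 12.9, 8.49 and 1.62 in Chd4KO and at 37.0, 51.3 and 32.3 in controls. The region over Ins1 itself (chr19:52263799-52264905) was among the strongest of the series, at 99.99, 99.99 and 99.6 in Chd4KO and at 99.6, 99.99 and 99.0 in controls.

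Mafa, a transcription factor that binds insulin promoters, had a weakened and a strengthened region side by side. The weakened one (chr15:75755692-75757206), 7371 bp from Mafa and inside the neighbouring gene Zc3h3, stood at 33.1, 48.1 and 31.3 in Chd4KO and at 75.5, 73.3 and 75.1 in controls. The strengthened one (chr15:75757811-75758410), 604 bp farther on, stood at 71.6, 68.0 and 73.4 in Chd4KO and at 15.6, 19.5 and 36.2 in controls. The region at the end of Mafa itself averaged 96.5 in Chd4KO and 96.7 in controls. Six2, a homeobox factor of β-cell maturation in humans, also had a weakened and a strengthened region, but these lay 12089 bp apart. Its weakened region within the gene (chr17:85674900-85675255) stood at 19.1, 11.3 and 4.15 in Chd4KO and at 48.7, 43.4 and 50.7 in controls. At one end of Six2 (chr17:85687345-85688677) a region was strengthened, at 62.1, 66.9 and 69.5 in Chd4KO and 12.9, 10.9 and 15.7 in controls.

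Genes with both kinds of region were common. Of the 34 listed β-cell genes with a weakened region, 21 also had a strengthened one, or 61.8%, against 35.0% of all 4255 genes with a weakened region, a comparison that the larger number of regions per listed gene also enters. The strongest region of the territory in controls was the weakened one for 1 of the 34 genes, Npy1r, a neuropeptide Y receptor gene with a single shared region. Over all genes with a weakened region this was so for 444, or 10.4%. The number of regions per gene and the control strength also enter this comparison, and neither was matched. Of all shared autosomal regions at control percentiles of 80 to 90, 1.30% were weakened, and of those at 90 to 100, 0.027%.

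Genes of exocytosis and calcium entry also had weakened regions. The region 7493 bp from Stx1a (chr5:135015362-135015989), which encodes the SNARE protein syntaxin-1A, lay nearer to Abhd11, at 3187 bp, and stood at 12.1, 15 and 18 in Chd4KO and at 61.0, 48.0 and 61.5 in controls. At the end of Stx1a another shared region averaged 75.3 in Chd4KO and 75 in controls. Rims2, a scaffold gene of vesicle release, had 2 weakened regions within the gene. The one with the larger difference (chr15:39334124-39335016) stood at 21.4, 27.6 and 21.2 in Chd4KO and at 64.3, 62.3 and 63.1 in controls. Of the L-type calcium channel genes, Cacna1c had 3 weakened and 7 strengthened regions among 39, and Cacna1d had 4 and 5 among 28. The lowest at Cacna1c (chr6:118883972-118884619) stood at 30.5, 33.0 and 39.6 in Chd4KO and at 70.5, 74.7 and 69.0 in controls.

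**Figure D4:**
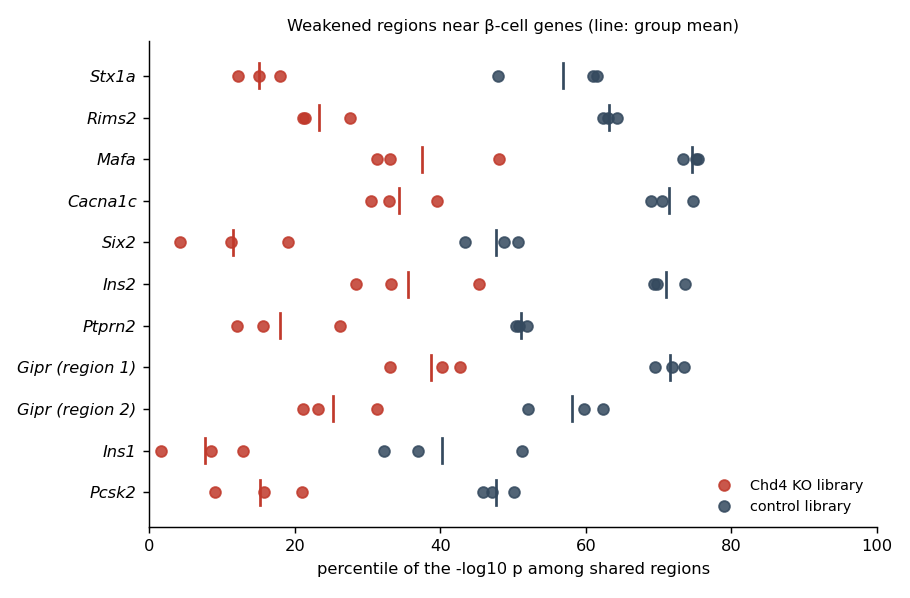
Percentile of the −log10 p in each library at 11 of the 12 weakened regions with the most negative differences among those near genes of the β-cell lists, with Chd4KO libraries in red, control libraries in blue and lines at the group means. Every red point lies left of every blue point in its row, as the rule requires, and the rows differ in level, from control means of 40.2 at Ins1 to 74.6 at Mafa.

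Genes of granule content, proinsulin processing and glucose metabolism followed the same pattern of single regions. The promoter region of Chga (chr12:102554625-102555301) stood at 50.5, 37.8 and 33.7 in Chd4KO and at 69.5, 68.8 and 72.6 in controls. Its fold enrichment was 4.73, 3.60 and 3.44 in Chd4KO, against 4.35, 4.46 and 4.84 in controls, so on that scale the groups overlapped. At the other end of Chga a region was strengthened, with means of 66.8 in Chd4KO and 43.5 in controls. Iapp, which encodes islet amyloid polypeptide, had a weakened region 728 bp from the gene (chr6:142304548-142305732), at 17.7, 21.4 and 28.9 in Chd4KO and 36.1, 63.9 and 57.8 in controls. This region overlapped the span of another gene, Slco1a5. Its fold enrichments were 2.66, 2.70 and 2.88 in Chd4KO and 2.62, 3.93 and 3.72 in controls, so the groups overlapped, with control library 1 below every Chd4KO value. Pcsk2, a proinsulin convertase gene, had 1 weakened region among 31 (chr2:143559474-143560903), at 21.0, 8.99 and 15.8 in Chd4KO and 45.9, 50.1 and 47.0 in controls. Ptprn2, which encodes a membrane protein of dense-core granules, had 6 weakened and 13 strengthened regions among 71, so its share of weakened regions, 8.45%, was near that of all shared autosomal regions.

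G6pc2, an islet glucose-6-phosphatase gene, had 2 weakened regions among 5, which lay 263 bp apart at and beyond one end of the gene. They stood at 17.1, 27.4 and 32.5 and at 14.2, 17.0 and 12.9 in Chd4KO, against 48.6, 52.1 and 50.5 and 49.3, 30.8 and 39.3 in controls. The fold enrichments of the groups overlapped at both, with 3.53, 3.85 and 4.16 in Chd4KO and 3.65, 4.20 and 4.27 in controls at the first, and 3.43, 3.25 and 2.91 in Chd4KO and 3.76, 3.24 and 3.71 in controls at the second. The strongest regions near G6pc2 averaged 94.7 and 92.4 in Chd4KO and 95.7 and 94.0 in controls.

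The cluster with the most weakened regions lay beside Gipr, the receptor gene of the incretin GIP. Within 9931 bp (chr7:19171703-19181633), from beyond an end of Gipr into the neighbouring gene Eml2, 4 of 5 shared regions were weakened and the fifth was strengthened. The first (chr7:19171703-19172428) stood at 33.1, 40.2 and 42.7 in Chd4KO and at 71.9, 73.4 and 69.5 in controls, with fold enrichments of 3.72, 4.38 and 4.56 in Chd4KO, against 10.6, 11.2 and 9.26 in controls. The second (chr7:19172751-19173329), 322 bp farther on, stood at 21.1, 23.2 and 31.3 in Chd4KO and at 59.7, 52.1 and 62.3 in controls. The strengthened region between them and the rest (chr7:19175567-19176520) stood at 92.0, 90.7 and 86.3 in Chd4KO and at 27.6, 12.9 and 25.5 in controls. The last 2 lay within Eml2, one of them over the Mir330 hairpin. Within Gipr itself the strongest regions averaged 85.1 and 87.6 in Chd4KO and 90.3 and 88.2 in controls, and 1 region was strengthened.

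By list, the share of weakened regions was 5.20% at β-cell transcription factor genes (14 of 269 regions, 11 of 31 genes), 8.95% at insulin secretion genes (40 of 447 regions, 23 of 41 genes) and 9.38% at maturation genes (9 of 96 regions, 6 of 17 genes). The last 2 shares were near the 8.78% of all shared autosomal regions and the first was below it. Of all shared gene-end regions 3.74% were weakened, against 10.0% of those within genes. Location and control strength thus enter the share of any list, and neither was matched. The gene counts stand against 25.3% of all autosomal genes, which had fewer shared regions each. Neurod1, Nkx6-1 and Pdx1 had no weakened region. Among α-cell genes 3 of 60 regions were weakened, all at Dpp10, a potassium channel subunit gene also expressed in neurons, with differences of -43.5 to -38.7 points. The region of Dpp10 with the largest difference (chr1:123486359-123487519) stood at 5.93, 16.6 and 21.8 in Chd4KO and at 54.5, 62.7 and 57.8 in controls. Of the regions at δ-, γ- and ε-cell genes 0 of 18 were weakened, at endothelial genes 0 of 28, at acinar genes 1 of 13, at leukocyte genes 1 of 20 and at mesenchymal genes 1 of 21. At duct genes 5 of 41 were weakened, 2 of them at Cftr, a chloride channel gene, and 2 at Spp1, the osteopontin gene. The part that a change in the number of such cells has in these values was not tested.

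Neuronal and synaptic genes had 19 weakened and 39 strengthened regions among 245, or 7.76% and 15.9%. Over all shared autosomal regions these shares were 8.78% and 11.0%. Dlg2, a synaptic scaffold gene, had 6 weakened and 6 strengthened regions among 40. Genes of NuRD subunits had 5 weakened regions among 69, or 7.25%, near Chd5, Gatad2b, Mbd2 and Mbd3. The one in the territory of Chd5 overlapped another gene, Rpl22. The one with the largest difference (chr10:80386334-80388320), in the territory of Mbd3 and at the end of the neighbouring gene Mex3d, stood at 55.5, 23.9 and 22.1 in Chd4KO and at 72.3, 70.1 and 75.8 in controls. AP-1 and immediate early genes such as Fos and Jun had 0 weakened and 0 strengthened regions among 45, with a median difference of -4.17 points. The location and control strength of these 45 regions were not matched to those of all shared autosomal regions. Housekeeping genes had 3 weakened (6.25%) and 0 strengthened among 48, and genes that are normally disallowed in β-cells had 5 of each (11.9%) among 42. No list median of the difference was positive except that of the neuronal genes, at 0.34 points, against -1.36 points over all shared autosomal regions.

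**Figure D5:**
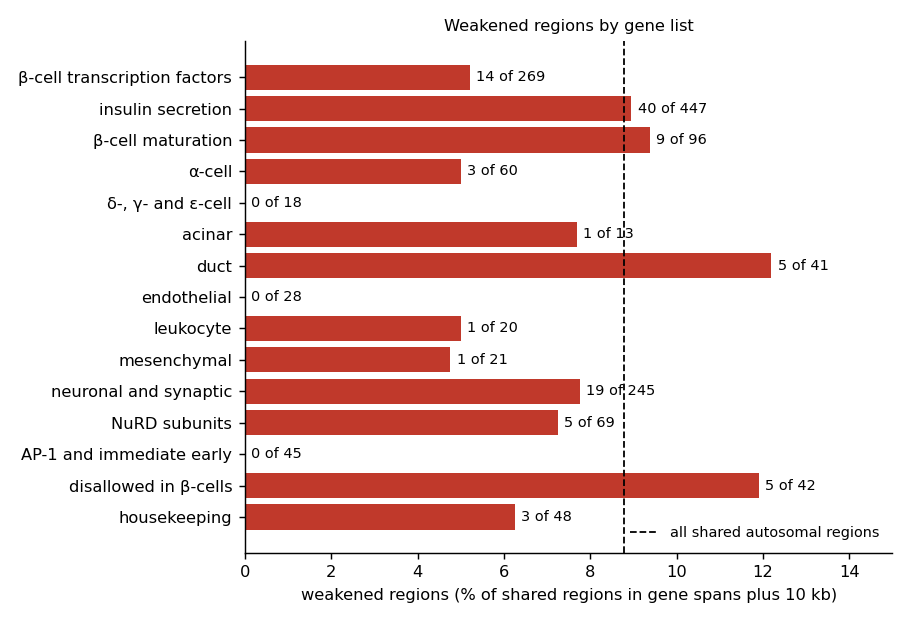
Weakened regions as a percentage of the shared autosomal regions in the gene spans plus 10 kb of each list, with counts beside the bars and the share over all shared autosomal regions, 8.78%, as a dashed line. The 3 β-cell lists lie between 5.20% and 9.38%, and the endothelial, AP-1 and δ-, γ- and ε-cell lists have none.

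Outside the lists, the most weakened regions per gene were found at long genes. Robo2, an axon guidance receptor gene, had 8 weakened and 6 strengthened regions of 46. Abr, a regulator of small GTPases, had 7 weakened and 4 strengthened of 27, and Macf1, a crosslinker of actin and microtubules, 7 weakened and 1 strengthened of 24. These were 17.4%, 25.9% and 29.2% weakened, against 8.78% of all shared autosomal regions, at genes picked for their counts. Adgrv1, an adhesion receptor gene, had 6 weakened regions of 16 and none strengthened. Among genes with at least 5 shared regions, the highest share was 4 of 5, at Tmem217. Afdn, the gene of the junction protein afadin, Arhgef38, Csgalnact1 and Stxbp5l, a syntaxin-binding protein gene, each had 4 of 6. Kat6a, which encodes a histone acetyltransferase, had 5 of 10. None of these 5 genes, nor Kat6a, had a strengthened region.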

How the data were processed

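The deposited files are 1 narrow peak list per library. Peaks were called by the authors with MACS2 on shifted cutting sites, per the file headers and peak names. Per the submitters' processing notes, reads were placed on mm10. The aligner and tool versions: not given in the sources used here. For each peak the authors deposited a fold enrichment at the summit (a ratio), a −log10 p, a −log10 q and the summit's offset. Every deposited peak has a q under 0.05 and a width of at least 200 bp. Reads were not counted in these lists, so library depth is unknown and no counting interval can be given.

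Peaks of the 6 lists were merged wherever they overlapped by 1 bp. The highest −log10 p per region and library became a percentile among regions called in all 6. Every comparison between Chd4KO and control uses the contrast that chose the regions, so values are descriptions without tests. The members and the 15 gene lists were chosen with earlier results of these data known. Named regions were the 10 most negative differences, the 10 strongest in controls, the 12 most negative near genes of the β-cell lists, those next to the threshold, up to 3 near α-cell and NuRD genes, and the largest cluster. Other regions and genes were chosen after their values were seen. Some regions that these rules name are not reported here. Genes were the 21887 protein-coding spans of RefSeq GRCm38.p6, without strand. The merging and the rule were tested on simulated data. Python 3.11.15, numpy 2.4.6, pandas 2.3.3 and matplotlib 3.10.9 were used. Alternatives changed the measure, the percentile base, the threshold, the merging, the gene distances and the libraries. One of them, percentiles among autosomal regions only, was added after seeing the data. Sequences came from RefSeq promoter and microRNA tables.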

Additional observations from a re-analysis of the deposited data

How the results depend on the processing

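No paired analysis was possible because the results come from no test. The number of weakened regions, 6447, was 3840 with percentiles among all peaks of a list, 14976 with a threshold of 10 points, 1816 with 30 points and 3667 where peaks had to cover 50% of the region. With fold enrichment in place of −log10 p it was 6898, and 5041 of the reported regions, or 78.2%, overlapped these. This share was 50.6% with percentiles among all peaks and 54.7% with 50% cover. With 1 library left out it was 6672 to 7164, with 82.5% to 92.3% of the reported regions overlapped. The share at gene ends, 8.03%, was 6.69% with list percentiles, 12.4% and 6.66% with 10 and 30 points, 9.24% with 50% cover and 21.3% with gene ends of 5 kb, and 7.18% to 8.99% with 1 library left out. The share between genes, 39.9%, was 43.6% by fold enrichment, 38.6% with list percentiles, 37.6% with 10 points, 34.1% with gene ends of 5 kb and 39.4% to 41.8% with 1 library left out. Against all shared regions, the share at gene ends was lower and the share between genes higher in every setting tried. The share with a lost region nearby, 6.0%, was 24.7% within 50 kb, against 22.8% of all shared regions. With 1 library left out it was 6.59% to 8.28%, while that of all shared regions was 6.41% to 8.05%. Listed β-cell genes with a weakened region, 34, were 56 with 10 points, 12 with 30 and 51 with gene spans widened by 50 kb. Of promoter windows, 1.47% were in weakened regions, against 0.297% with 30 points. Percentiles among autosomal regions only, added after seeing the data, gave 6453 regions.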

Other observations

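Of the 12 microRNA hairpins with a weakened region within 1 kb, 7 lay under the region itself. Besides Mir30a, Mir152 and Mir330 these were Mir1955, Mir1932, Mir7237 and Mir6394. The region over Mir1955 stood at percentiles 39.7, 17.9 and 8.22 in Chd4KO libraries 1 to 3, against 60.5, 57.6 and 52.1 in control libraries 1 to 3.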
